A study of Saccharomyces cerevisiae with 3 samples.

Results

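The scores of untreated, growing budding yeast are described here, for every array feature by the kind of gene or element it is named for. The column was chosen by its label alone, and it is 1 of 3 in the series. It holds a value for 6284 of 6399 features, and it is the authors' mean of 3 arrays. The cells, Saccharomyces cerevisiae that carried myc-tagged Maf1, grew in rich medium (YPD) to an optical density of 0.6 and received no treatment. Crosslinked chromatin was depleted of Maf1 with an antibody against the tag, and a Western blot showed little Maf1 left, per the series' design text. The rest of the genotype is not stated in the labels. DNA left in the depleted chromatin carried Cy5 and DNA of the input chromatin carried Cy3, and both were hybridized together to microarrays of intergenic DNA. No array of an untagged strain or of a mock depletion was analysed here, so no background measured in that way can be set beside these scores.

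Maf1 represses RNA polymerase III (Pol III) in organisms from yeast to human. Pol III makes the tRNAs, 5S ribosomal RNA and a few other small RNAs. TFIIIC binds elements inside tRNA genes and places TFIIIB just upstream of the start, and TFIIIB recruits the polymerase. In growing cells Maf1 is phosphorylated and Pol III transcription is high. Under stress or when TOR is inhibited, Maf1 is dephosphorylated and binds the polymerase.

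All values below are centred scores, which are the deposited score minus the column median, in score units. The labels give neither a log base nor which dye is on top of the ratio. A high score is therefore not read as more or as less Maf1, and with the sign turned every high value below is a low one. DNA lost along with Maf1 would score low if the ratio were depleted over input DNA, and high if it were the other way up. Which of these holds was not tested. The features were sorted by name into 250 for tRNA genes, 48 for other small RNAs, 249 for retrotransposon elements, 16 for centromeres (CEN) and 5806 for open reading frames (ORFs). A further 30 carry NT before an ORF name. Below, a gene name stands for the feature that carries it. The labels do not give the stretch a feature covers, so its level is not read as that of the gene. A value was missing at 103 ORF-named features, 5 tRNA-named ones, 4 retrotransposon ones and 3 of the NT kind. The tRNA-named features without a value were tG(GCC)D1, tG(UCC)N, tN(GUU)N1, tT(AGU)N1 and number 1 of tR(ACG)D. Those named for LTRs were number 0 of YDRCdelta9, YDRWdelta14 and numbers 1 and 2 of YNLCdelta1, and those of the NT kind were NTQ0185A, NTYCR097W-A2 and NTYER133W. There is 1 averaged column and hence no spread between arrays, no interval for a single feature and no test. The number of arrays limits the precision. In bulk chromatin, a change in how many cells hold Maf1 at a gene and a change in how much each cell holds there cannot be told apart.

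Features named for tRNA genes scored higher than any other class with more than 1 measured feature. Their median was 0.76 over 245 features, with quartiles of 0.46 and 1.01 and a range from -0.75 to 1.62. The median of all 6284 features was 0 by construction, with quartiles of -0.28 and 0.25. Of the tRNA-named features 235 lay above 0, where 50.0% of all features do, and 218 lay above the upper quartile of the ORF-named ones, which was 0.20. A limit was set at 3 robust SDs of the column (the median absolute deviation scaled to the SD of a normal distribution, 0.388), which is a centred score of 1.16 to either side. Above it lay 34 of the 245 tRNA-named features and 1.27% of all features. Below it lay 0 of them and 1.19% of all features.

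**Figure D1:**
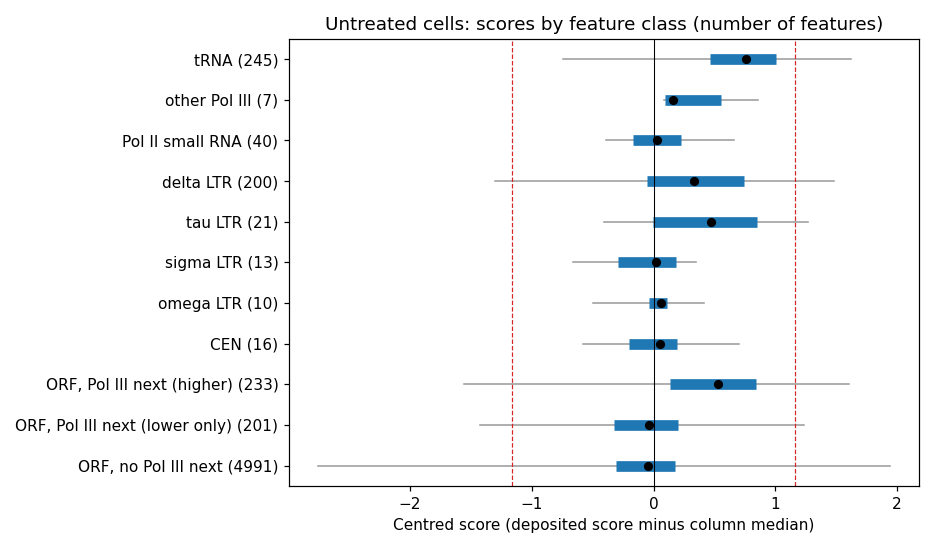
Centred scores of untreated cells (horizontal axis, score units) for 11 classes of array feature, with the number of features in brackets. Points are medians, thick bars run between the quartiles, thin lines span the range and dashed lines mark 3 robust SDs; tRNA-named features have the highest median, 0.76, followed, among classes of more than 1 feature, by ORF names with a following Pol III gene at 0.53.

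The highest tRNA-named features belonged to several amino acids. Of aspartate tRNA, tD(GUC)G1 stood at 1.62, tD(GUC)J2 at 1.58 and tD(GUC)G2 at 1.44. Of threonine and leucine tRNA, tT(AGU)I1 stood at 1.61 and tL(CAA)G2 at 1.52. Then came tG(UCC)G at 1.42, tP(UGG)O2 at 1.41, tI(UAU)D at 1.40, and tT(AGU)J and tE(UUC)K, both at 1.39. A tRNA name gives the amino acid, the anticodon, the chromosome as a letter and a copy number. Thus 3 of these 10 features are named for genes of the aspartate tRNA. At the other end, 10 tRNA-named features lay below 0. The lowest were tQ(UUG)B at -0.75, number 1 of tW(CCA)K at -0.70, number 1 of tV(AAC)G3 at -0.67 and tV(AAC)E1 at -0.32. They were followed by tF(GAA)G at -0.22, tA(AGC)K1 at -0.15, tI(AAU)B at -0.05, tT(CGU)K at -0.04, tQ(UUG)D1 at -0.02 and tT(UGU)H at -0.01. These low features came from 7 amino acids. Glutamine and valine tRNAs with the same anticodons also had features above the limit, tQ(UUG)D2 at 1.21 and tV(AAC)M2 at 1.37.

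Every amino acid had a median above the upper quartile of the ORF-named features. The medians of the 20 amino acids lay between 0.46 and 0.97. Aspartate was highest at 0.97 over 12 features, then tryptophan at 0.95 over 6 and threonine at 0.94 over 14. Tyrosine at 0.46 over 8 features and alanine at 0.46 over 11 were lowest. The ranges of these groups overlap widely. The tyrosine features, all with the anticodon GUA, ran from 0.04 at tY(GUA)F1 to 1.22 at tY(GUA)F2. In between stood 0.21 at tY(GUA)M1, 0.40 at tY(GUA)J1, 0.41 at tY(GUA)O, 0.51 at tY(GUA)J2, 0.78 at tY(GUA)D and 1.18 at tY(GUA)M2. Both ends of that range are named for genes on chromosome VI, tY(GUA)F1 and tY(GUA)F2. The aspartate features, all with the anticodon GUC, ran from 0.40 at tD(GUC)K and 0.41 at tD(GUC)L1 up to the 3 named above. Between them lay 0.75 at tD(GUC)J1, 0.82 at tD(GUC)M, 0.85 at tD(GUC)J4, 0.89 at tD(GUC)D, 1.05 at tD(GUC)L2, 1.17 at tD(GUC)I2 and 1.20 at tD(GUC)B. Thus the tyrosine and the aspartate features each spread over a wider range than the medians of the 20 amino acids. Medians vary less than single features in any case, so no conclusion about the families is drawn from this.

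**Figure D2:**
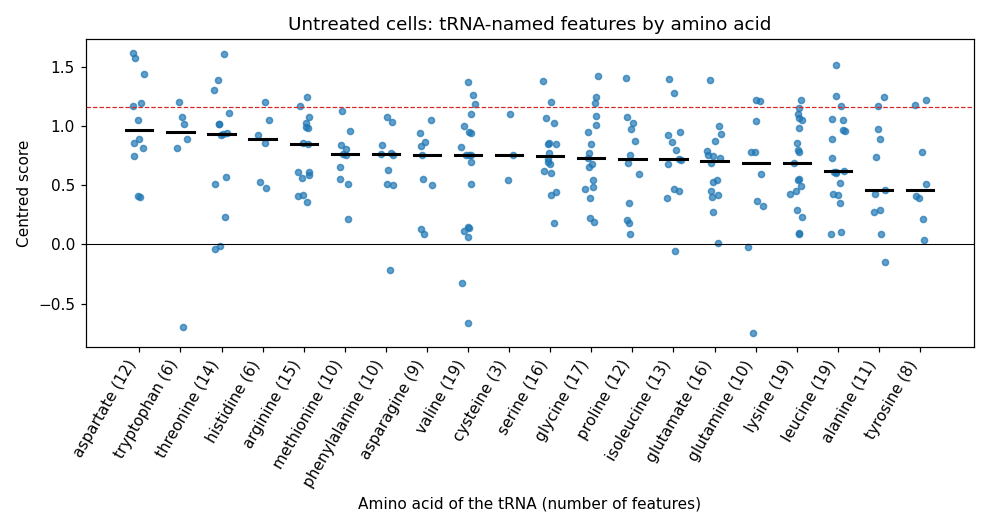
Centred scores (vertical axis, score units) of the 245 measured tRNA-named features, by amino acid in order of median, with the number of features in brackets. Each point is a feature, bars are medians and the dashed line marks 3 robust SDs; the medians run from 0.97 for aspartate to 0.46 for tyrosine, with wide overlap.

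Grouped by anticodon, the tRNA-named features fell into 40 families. Differences between family means made up 20.0% of the sum of squares of the 245 scores, those between amino acids 6.06% and those between chromosomes 6.17%. These shares are descriptions, and the first is raised by the number of small families whatever their scores. Copies of a family are near-identical in sequence, so hybridization may not tell the gene bodies apart, whereas the stretches beside them differ. The families with the highest medians were small: tI(UAU) with 1.40 at tI(UAU)D and 1.28 at tI(UAU)L, tG(UCC) with 1.42 at tG(UCC)G and 1.25 at tG(UCC)O, and tV(CAC) with 1.26 at tV(CAC)H and 1.19 at tV(CAC)D. In these 3 families, and in tQ(CUG) whose single feature tQ(CUG)M stood at 1.22, every measured member lay above the limit. The families with the lowest medians were also small, at -0.04 for tT(CGU)K, 0.36 for tR(CCG)L and 0.42 for tR(CCU)J, each a family of 1 feature. The 15 families of 1 to 3 features had medians from -0.04 to 1.34, and the 10 families of 10 or more had medians from 0.62 to 0.97. The family tM(CAU), whose name covers the initiator and the elongator methionine tRNA alike, ran from 0.21 at tM(CAU)C to 1.13 at tM(CAU)O1.

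The height of the tRNA-named features did not rest on a few chromosomes. On each of the 16 nuclear chromosomes their median was above that of the ORF names without a neighbouring Pol III gene. The difference of medians was smallest on chromosome XVI, at 0.53 over 14 tRNA-named features, and largest on chromosome I, at 1.10 over 3. The ORF medians themselves differed between chromosomes, from -0.22 on chromosome II and -0.19 on chromosome IV to 0.08 on chromosome XVI and 0.13 on chromosome XV. What moved the level of whole chromosomes was not tested. The array carries 243 distinct tRNA names, and the RefSeq table of assembly R64 lists 275 nuclear tRNA genes.

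The other Pol III genes had a lower median than the tRNA-named features, and 2 of the 7 stood above the tRNA median. All 7 of their features lay above 0, where 50.0% of all features do. Above the limit lay 0, where 1.27% of all features do. Their median was 0.16, or 0.25 with each chromosome centred on its own median. RPR1, the RNA of RNase P, which trims the 5′ end of precursor tRNAs, stood at 0.85. SCR1, whose RNA is part of the signal recognition particle, stood at 0.76. Both were just above the tRNA median. SNR52, a nucleolar guide RNA gene, stood at 0.16, and SNR6, the gene of U6 spliceosomal RNA, at 0.09. Of the 5S ribosomal RNA genes, RDN5-2 stood at 0.34, and RDN5-1 and RDN5-3 both at 0.09, and these repeated genes may not be told apart by hybridization. The feature named RDN37-1, for the large ribosomal RNA gene of RNA polymerase I, stood at 0.84, close to RPR1 in level. The arrays carry intergenic DNA and the labels do not give the stretch it covers. Neither its level nor the others in this paragraph are therefore read as levels of the genes themselves.

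Small RNA genes of RNA polymerase II (Pol II) gave no common level. Their median over 40 features was 0.03, with quartiles of -0.17 and 0.23. Above 0 lay 22, where 50.0% of all features do. Past either limit lay 0, where 1.27% of all features lie above and 1.19% below. The highest were the small nucleolar RNA genes SNR53 at 0.66, SNR66 at 0.52, SNR55 at 0.51, SNR54 at 0.48 and SNR58 at 0.42. The lowest were SNR71 at -0.39, SNR64 at -0.37, SNR68 at -0.36, SNR45 at -0.36 and SNR189 at -0.35. Spliceosomal RNA genes of Pol II stood at 0.14 for SNR14 (U4), 0.03 for SNR7-S (U5) and -0.26 for LSR1 (U2). U6, the spliceosomal RNA made by Pol III, thus had a score within the range of those made by Pol II. TLC1, the telomerase RNA, stood at 0.27.

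Long terminal repeats (LTRs) are the ends of yeast Ty retrotransposons, most of them left behind alone. Ty1 to Ty4 insert upstream of Pol III genes, so many LTRs lie near tRNA genes, while Ty5 inserts into silent chromatin. The 244 measured LTR features had a median of 0.29, with quartiles of -0.07 and 0.72. Above 0 lay 172 of them, where 50.0% of all features do. Above the limit lay 12 of them, or 4.92%, against 1.27% of all features, and below it 1, against 1.19%. The types differed in level. Delta elements, the LTRs of Ty1 and Ty2, had a median of 0.33 over 200 features, and tau elements, those of Ty4, 0.47 over 21. Sigma elements, those of Ty3, had a median of 0.02 over 13 features, and omega elements, those of Ty5, 0.06 over 10. No test of this difference was possible within 1 column, and which LTRs lie beside a tRNA gene was not analysed here.

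Among delta elements the highest scores were 1.482 at YLLCdelta1, 1.44 at YMRWdelta21, 1.43 at YKLCdelta5, 1.39 at YKRWdelta10 and 1.22 at YERCdelta15. The lowest were -1.30 at YERCdelta26, -0.80 at YDRWdelta24, -0.78 at YFRWdelta10 and -0.67 at both YELWdelta5 and YCRWdelta12. The delta scores thus spanned a wider range than the tRNA-named ones. Tau elements ran from 1.27 at YGLWtau2, 1.20 at YBLWtau1, 1.06 at YERCtau2, 0.94 at YMRCtau1 and 0.90 at YNRCtau3 down to -0.09 at YPLCtau2, -0.11 at YPRCtau3, -0.28 at YGLCtau3, -0.34 at YJLWtau4 and -0.41 at YELCtau1. Sigma elements had no score as high as these tau ones. Their highest were number 1 of YPRWsigma2 and YARWsigma1, both at 0.35, YHRCsigma2 at 0.34, YOLWsigma2 at 0.18 and YORWsigma3 at 0.17, and their lowest YPRWsigma4 at -0.66, YBLCsigma1 at -0.42, YGRWsigma5 at -0.38, YDRCsigma1 at -0.30 and YERCsigma3 at -0.16. The highest sigma score lay below the median of the tRNA-named features, and so did the highest omega score. The upper quartile of all features, 0.25, also lies below that median, so this is not particular to sigma. The omega features came from 6 elements and ran from -0.50 at number 0 of YERComega1 to 0.41 at number 0 of YERWomega2. Number 1 of YERWomega2 stood at 0.24 and number 1 of YGLWomega1 at 0.12, and the other 6 lay between -0.13 and 0.08. The only feature named for a Ty element itself, YDRCTy1-2, stood at 0.64.

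Centromeres bind the kinetochore and hold no Pol III gene. The 16 CEN features had a median of 0.05. None lay past either limit, where 1.27% of all features lie above and 1.19% below. CEN9 stood at 0.70, CEN5 at 0.49, CEN15 at 0.29, CEN3 at 0.26, CEN8 at 0.17 and CEN14 at 0.12. CEN16 and CEN4 stood at 0.08, CEN12 at 0.02, CEN6 at 0.01 and CEN7 at -0.02. The lowest were CEN1 at -0.19, CEN13 at -0.25, CEN10 at -0.44, CEN2 at -0.51 and CEN11 at -0.58. As many as 10 of the 16 lay above 0, where 50.0% of all features do. Of the NT features, whose name is not explained in the sources used here, 19 with a nuclear ORF name had a median of 0.20, between -0.64 at RPL35A and 0.51 at MPT5, and 8 with a mitochondrial name had a median of 0.08.

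The 5703 measured ORF-named features had a median of -0.03 and 46.9% of them lay above 0, but they were not alike. The arrays carry intergenic DNA, so an ORF name stands for a stretch beside that ORF, on a side the labels do not give. With a Pol III gene as the next gene towards higher coordinates, the median was 0.53 over 233 features, with quartiles of 0.14 and 0.84, and 193 lay above 0. Where the Pol III gene is next only at lower coordinates, the median was -0.04 over 201 features, and 91 lay above 0. Where no Pol III gene is next, it was -0.04 over 4991 features, and 2249 lay above 0. The 278 measured ORF-named features whose name is not in the gene table had a median of 0.01.

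The high median was limited to the first gene among the 8 steps examined on each side. Features whose second gene at higher coordinates is the first Pol III gene had a median of -0.03 over 217, and those for which it is the third gene -0.07 over 202. From the fourth to the eighth gene the medians lay between -0.07 and -0.01. On the lower side the medians lay between -0.06 and 0.03 at every step from the first to the eighth gene. High medians thus went with ORF names that a Pol III gene follows along the chromosome.

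**Figure D3:**
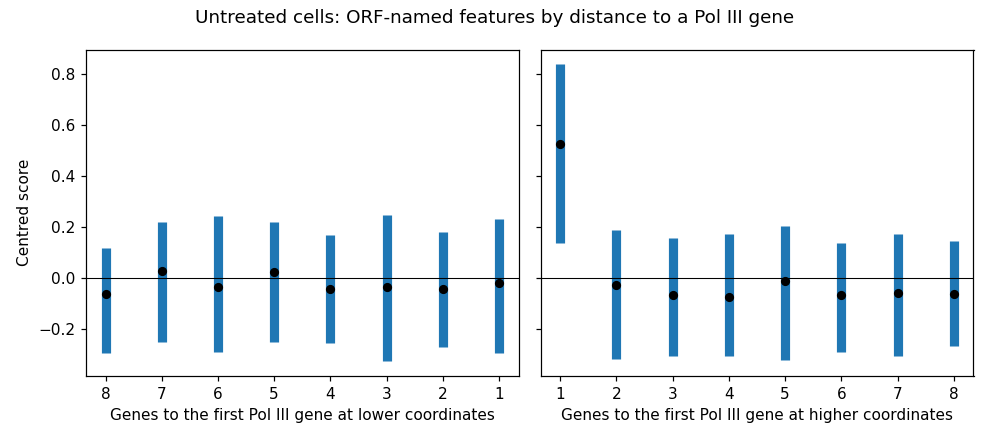
Centred scores (vertical axis, score units) of ORF-named features by the number of genes to the first Pol III gene at lower coordinates (left) and at higher coordinates (right). Points are medians and bars run between the quartiles; the median is 0.53 at the first step on the right and between -0.07 and 0.03 at every other step shown.

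Some names are shared by features numbered from 0. The labels do not say what the number stands for. Of 12 ORF names with a Pol III gene next at higher coordinates, 10 had their highest score at the last number. The median of the first numbers was -0.05 and that of the last 0.47. NNF2 went from -1.35 to 0.77, ERB1 from -1.05 to 1.01 and ASE1 from -1.05 to 0.42, and YDL211C had 0.03, -1.05 and 1.36. In tRNA names the order was turned, with the last number below the first in 5 of 6. The features of tW(CCA)K stood at 0.81 and -0.70, those of tE(CUC)D at 1.001 and 0.01, those of tV(AAC)G3 at 0.14 and -0.67, those of tV(AAC)K1 at 0.76 and 0.06 and those of tP(UGG)L at 0.59 and 0.09. The exception was tS(UGA)E, at 0.72 and 0.85. For ORF names without a neighbouring Pol III gene, the last number lay above the first in 81 of 169, a median difference of -0.02. For the 6 ORF names with a Pol III gene next only at lower coordinates it lay above in all 6. Their median difference was 0.54, beside 0.52 for the 12 names with one at higher coordinates. A rise with the number was thus not particular to names that a Pol III gene follows. These splits were chosen with the values in view.

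**Figure D4:**
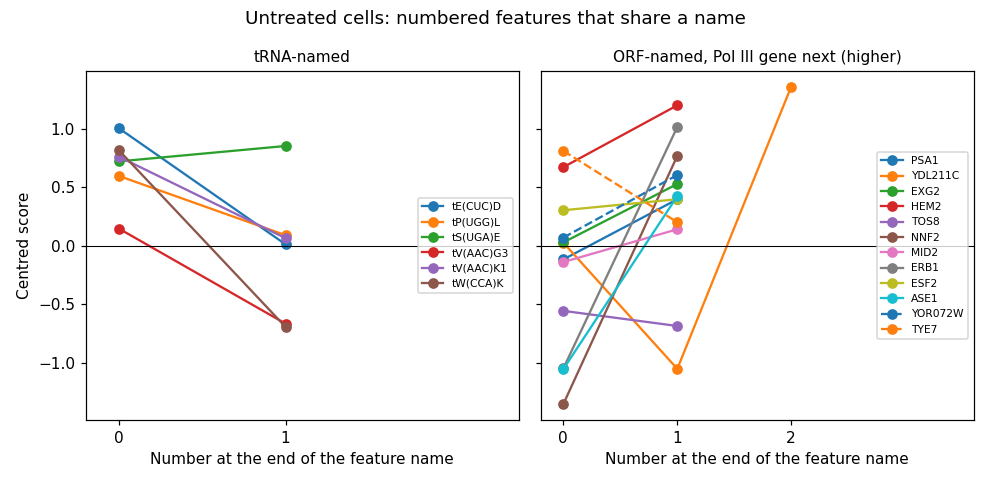
Centred scores (vertical axis, score units) of numbered features that share a name, against the number at the end of the name, for 6 tRNA names (left) and 12 ORF names with a Pol III gene next at higher coordinates (right). Lines join features of a name; 5 of 6 tRNA names fall from the first number to the last and 10 of 12 ORF names end highest.

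The median differed with the orientation of the genes, which was read from the gene table and not from feature positions. It was 0.62 over 71 features where the start of the ORF faces the end of the Pol III gene, 0.57 over 60 where both starts face and 0.59 over 45 where both ends face. It was 0.16 over 57 features where the end of the ORF faces the start of the Pol III gene, with quartiles of -0.10 and 0.67. Of these 57 features 38 lay above 0, against 66 of 71, 48 of 60 and 41 of 45 in the other arrangements. The 57 features also held PUT1, whose 1.60 was the highest of the 233, and BTN2, whose -1.56 was the lowest. The arrangements overlap, the split was chosen with the values in view, and it was not tested. Where no Pol III gene was next, the same 4 arrangements with the next gene had medians between -0.06 and -0.04.

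**Figure D5:**
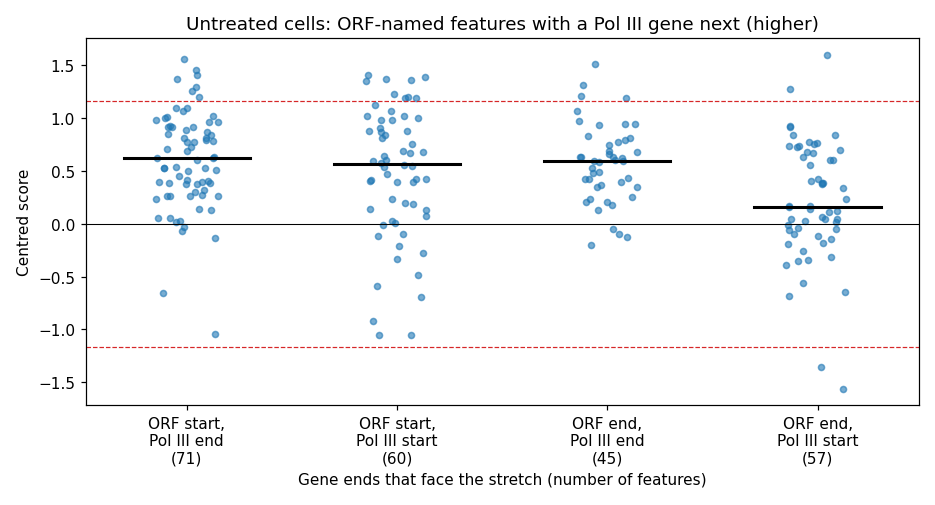
Centred scores (vertical axis, score units) of the 233 ORF-named features with a Pol III gene next at higher coordinates, by which ends of the ORF and of the Pol III gene face each other. Each point is a feature, bars are medians and dashed lines mark 3 robust SDs; the median is 0.16 where an ORF end faces a Pol III start and 0.57 to 0.62 in the other arrangements.

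Of the 233 features, 22 lay above the limit, where 1.27% of all features do, and 2 below it, where 1.19% do. The highest were PUT1 at 1.60, the proline oxidase gene, SEC7 at 1.56, which encodes an exchange factor of Golgi traffic, COQ8 at 1.51, a gene of coenzyme Q synthesis, and PFU1 at 1.46. NUP192 at 1.41, a nuclear pore gene, AIM25 at 1.40, VOA1 at 1.39, and DFP1 and RHB1, both at 1.37, followed, with number 2 of YDL211C at 1.36. The gene next to each of these 10 at higher coordinates is a tRNA gene. Beside other Pol III genes the scores were mixed. YLR161W and YLR159W, each followed by a 5S gene, stood at 0.73 and 0.70. PMD1, before SNR52, stood at 0.05. REX3, before SNR6, stood at -0.39, while YLR108C, on the other side of SNR6, stood at 1.18, above the limit. PXP1, which follows RPR1, stood at -0.16.

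Of the 80 features above the limit, 34 carried tRNA names (42.5%), 22 were ORF-named with a Pol III gene next at higher coordinates (27.5%) and 12 were LTRs (15%). The other 12 were ORF-named, 10 with no Pol III gene next and 2 with one at lower coordinates only. Those 2 were number 1 of SRM1 at 1.24 and YLR108C at 1.18. Among all 6284 measured features, 245 carried tRNA names, 233 were ORF-named with a Pol III gene next at higher coordinates and 244 were LTRs. NPR1, a protein kinase gene that regulates nutrient permeases, had the highest score of the whole column at 1.94, with ORFs on both sides. MDM38, a mitochondrial protein gene, followed at 1.80, and a Pol III gene is the second gene from it at higher coordinates. The rest were AIM6 at 1.58, RCN1, a calcineurin regulator, at 1.51, HIS4, of histidine synthesis, at 1.46, GTS1 at 1.34, BRE1, a histone ubiquitin ligase, at 1.32, YCR022C at 1.22, NOB1 at 1.20 and number 2 of AAP1 at 1.19. These 10 came from 4991 features, a share of 0.200%, against 22 of 233 or 9.44% beside a Pol III gene at higher coordinates.

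The 75 features below the limit held 74 ORF names, 1 LTR and no feature named for a Pol III gene. No Pol III gene was next at 68 of the ORF names. Below the limit lay 1.30% of ORF-named features and 1.36% of those with no Pol III gene next, against 1.19% of all features. These shares are close, so the make-up of this tail is not read as a trait of these features. The lowest were DIP5, a dicarboxylic amino acid permease gene, at -2.76, KIN2, a protein kinase gene, at -2.68, YPL071C and IPT1, of sphingolipid synthesis, both at -2.23, and PRT1, a translation initiation factor gene, at -2.205. OM14 stood at -2.06, YGL046W at -2.04, UTP8 at -1.955, AKR2 at -1.92 and SLT2, a kinase of cell wall integrity, at -1.91. The low tail reached further from the median than the high one. The scores of neighbouring ORF-named stretches away from Pol III genes had a correlation of 0.14 over 3749 pairs, and of 0.08 with each chromosome centred separately. The pairs share arrays and a region, and this is a description.

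Genes of the Pol III machinery are themselves transcribed by Pol II, and the stretches beside them gave scores on both sides of 0. Over 26 features the median was 0.10, and 15 lay above 0, where 46.9% of all ORF-named features do. Past either limit lay 0, where 1.27% of all features lie above and 1.19% below. PZF1, which encodes TFIIIA, the 5S-specific factor, stood at -0.002. The TFIIIB genes SPT15 (the TATA-binding protein), BRF1 and BDP1 stood at 0.35, 0.14 and 0.12. Of TFIIIC, TFC3 stood at 0.61, TFC8 at 0.21, TFC6 at 0.12, TFC7 at -0.03 and TFC4 at -0.46, while TFC1 had no value. Among 17 Pol III subunit genes the median was 0.06. The largest subunits RPO31 and RET1 stood at 0.06 and 0.41. Subunits found in Pol III alone were spread widely, with RPC37 at 0.37, RPC17 and RPC31 at 0.13, RPC34 at 0.13, RPC82 at 0.09, RPC11 at -0.56, RPC25 at -1.09 and RPC53 at -1.12. RPC17 is the only gene of this list with a Pol III gene next to it. Subunits shared with other polymerases stood at 0.44 for RPB8, 0.23 for RPO26, -0.06 for RPC40, -0.21 for RPB5, -0.24 for RPB10, -0.27 for RPC19 and -0.565 for RPC10.

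Genes of the pathways that act on Maf1 had a median of -0.17 over 24 features of 23 genes. Above 0 lay 11, where 46.9% of all ORF-named features do. Past either limit lay 0, where 1.27% of all features lie above and 1.19% below. MAF1 itself stood at -0.37. Of the TOR branch, KOG1 stood at 0.37, LST8 at 0.26, TOR1 at -0.17, SCH9, a kinase that phosphorylates Maf1, at -0.30, TCO89 at -0.33 and TOR2 at -0.41. Of protein kinase A, TPK2 stood at 0.17, the features of TPK3 at 0.28 and -0.40, and the regulatory subunit BCY1 at -0.80. Of the phosphatases, which act on the other side of that balance, SIT4 stood at 0.33, TPD3 at 0.22, TAP42 at 0.17, PPH21 at 0.07, PPH3 at -0.55, PPH22 at -0.94 and CDC55 at -0.995. Casein kinase genes stood at 0.30 for CKB1, 0.22 for CKA2, -0.32 for CKA1 and -0.47 for CKB2, and the exportin gene MSN5 at 0.05. The median lay within the quartiles of all ORF-named features, -0.30 and 0.20.

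Genes that act on tRNAs after transcription also had scores on both sides of 0. Over 21 genes of tRNA processing and export the median was -0.22, with 7 above 0. TRM10 and TPT1 were highest at 0.50 and 0.33, and RIT1 and TRZ1 lowest at -0.92 and -0.80, and RIT1 is followed by the tRNA gene SUP8. Over 18 cytosolic aminoacyl-tRNA synthetase genes the median was 0.05 and 9 lay above 0. THS1 and CDC60 were highest at 0.92 and 0.55, and GRS1 and DED81 lowest at -0.86 and -0.78. Strongly transcribed Pol II genes had medians near 0. Over 127 ribosomal protein genes the median was -0.06 and 58 lay above 0, with RPL13B at 0.92, RPS26A at 0.74, RPL19B at -0.90 and RPS16A at -1.22. Over 15 features of 14 glycolytic genes it was -0.15 and 5 lay above 0, with ENO1 at 0.41, FBA1 at 0.19, TDH2 at -0.55 and CDC19 at -0.61. Over 10 histone genes it was 0.02 and 5 lay above 0, with HHO1 at 0.49, HHT2 at 0.29, HTA2 at -0.76 and HTB1 at -1.25. Past the limits in these lists lay HTB1 and RPS16A alone, both below. Of all ORF-named features 46.9% lay above 0, 0.60% above the upper limit and 1.30% below the lower one. With shares this small, the counts past the limits are not read as a result about these genes.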

How the data were processed

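The deposited values are scores: per the labels, each column is the authors' mean of 3 replicate arrays after normalization to a gene list, with immunodepleted chromatin in Cy5 and input in Cy3. The list's members, the background correction, spot filters, array design and genome build are unstated, and depth does not apply to arrays. The untreated column alone was analysed, and 0 value columns could not be mapped. It was centred on its median, -0.0088, and no test was run. Classes were read from feature names. Gene symbols, strands and gene order came from RefSeq R64, which held 5525 of 5806 ORF names. Antisense and other unclassified noncoding RNAs were left out of the gene order. Named features are the extremes of each class (10 tRNA and ORF names, 5 small RNAs and LTRs), all CEN, other Pol III, Pol III machinery and Maf1 pathway features, and the 2 extremes at each end of other lists. A member of the Maf1 pathway list is not reported here. Members, lists and the orientation and numbering splits were chosen with earlier results of these data known. The counting was tested on simulated data. Alternatives changed the centring, the limit and the treatment of numbered features, and a median counted as moved outside its 95% order-statistic interval over features. Python 3.11.15, pandas 2.3.3 and numpy 2.4.6 were used.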

Additional observations from a re-analysis of the deposited data

How the results depend on the processing

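None of the medians recomputed (tRNA, other Pol III, Pol II small RNA, all LTRs, CEN, and ORF names in all and by neighbour) changed sign under no centring, centring of each chromosome, averaging of numbered features or centring on ORF-named features. The other Pol III median was 0.25 in place of 0.16 with each chromosome centred. Its interval, 0.09 to 0.85, is the full range of the 7 features, so it could hardly show a move. With ORF-named features as the centre, their own median became 0.00 and that of ORFs with no Pol III gene next -0.0164, as the construction sets. With each chromosome centred, 123 features lay above the limit, 54 of them tRNA-named and 20 LTRs. With 2 robust SDs, 312 lay above and 273 below, among them 114 tRNA-named, 54 LTR and 142 ORF-named features above and 270 ORF-named below. With 4 robust SDs, 8 lay above (3 tRNA-named, 0 LTR, 5 ORF-named) and 20 below, all ORF-named. With 3 plain SDs, 28 lay above (12, 4 and 12) and 39 below, all ORF-named. The orientation medians, rerun after the values had been seen, were 0.19 between ORF end and Pol III start and 0.61 to 0.62 otherwise with each chromosome centred. No paired analysis was possible because each condition has 1 averaged column. Single features rest on 1 mean of 3 arrays, and signal over background was not given.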
